A study of Arabidopsis thaliana with 10 samples.

Results

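In whole seedlings of Arabidopsis thaliana, 11 genes had a higher signal with dexamethasone than with the solvent at 4 h and again at 24 h. They were chosen from the measured values, among 13442 single-gene probe sets that could qualify, out of 22810 probe sets in all. A gene qualified where both dexamethasone arrays lay above both control arrays at each time, the dexamethasone mean exceeded the control mean by at least 25% at each time, and it was above a signal of 40 at each time. Plastid-encoded genes were left out, as were UGT88A1 and LHCB4.2. With the labels of dexamethasone and control exchanged, the same rule found 2 genes. The differences between dexamethasone and control are therefore given below as a description of the genes the rule picked, with no test.

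The study measured total RNA on 10 arrays, 2 in each of 5 groups. Controls received DMSO and were sampled at 0 h, 4 h and 24 h, and the other samples received dexamethasone and were sampled at 4 h and 24 h. All groups, controls included, carried transposon insertions in both GLK genes (Atglk1;Atglk2) in the Col-0 background, per the labels. All grew for 10 days on plates with hygromycin B at 20 ug/ml in cycles of 16 h light and 8 h dark, and then for 48 h in flasks of about 100 seedlings. The labels used here name no dexamethasone-responsive transgene or its promoter, and they do not say that the replicates came from separate flasks, so the spread between replicates may be technical. Whole seedlings mix shoot and root, and a lower signal from fewer cells of a type cannot be told apart from less RNA per cell.

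GLK factors are transcription factors that switch on nuclear genes of chloroplast development, among them genes for chlorophyll synthesis and for the light-harvesting antenna. Dexamethasone is a steroid that plants do not make, used to switch on transgenes through a glucocorticoid receptor domain. A gene that stays higher at an early and at a late time can respond to the induced factor directly or through other genes, and array signals do not separate the possibilities.

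Each array had been scaled to the same mean before deposit, and the median signal per array lay between 33.9 and 35.9. Of the shoot markers LHCB4.1, PSBW and PSAE-1 were measured, with a summed signal of 7474 to 10572 on the 10 arrays, and of the root markers EXPA7, EXPA18 and PYK10, with 3291 to 4274. Both sums were higher with dexamethasone at 24 h: the shoot sum was 10088 and 10572 against 8195 and 8614 in the controls, and the root sum 3942 and 3758 against 3610 and 3291. At 4 h the groups overlapped in both sums. PYK10 made up most of the root sum, with 3809 and 3641 against 3529 and 3158 in the controls at 24 h. For EXPA7 and EXPA18 the groups overlapped at 24 h. The part of these shifts in the results at 24 h was not tested. A pair of arrays stood apart. The summed signal of 4 defence markers (CHI, AT2G43620, AT4G12490 and AT4G12500) was 7204 on replicate 1 of the 24 h control and 9934 on replicate 2 of dexamethasone at 4 h, against 352 to 956 on the other 8 arrays. Without these arrays the 11 genes still met the rule, with ratios of 1.27 to 4.07 at 4 h and of 1.28 to 2.95 at 24 h.

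The count of 11 has to be read against how often the rule is met in other directions. The 11 genes are 0.0818% of the probe sets that could qualify, and the 2 with exchanged labels are 0.0149%. At 4 h alone 329 genes met the rule as higher (2.45%) and 268 as lower (1.99%). At 24 h alone the counts were 198 (1.47%) and 164 (1.22%). Genes that met it in opposite directions were as frequent as the 11: another 11 were higher at 4 h and lower at 24 h (0.0818%), and 15 were lower at 4 h and higher at 24 h (0.112%). With no bound on ratio or mean signal, 314 probe sets had both dexamethasone arrays above both controls at both times (2.34%), and 414 had them below (3.08%). Without the bounds, higher genes were thus not the more frequent ones. Of the 9233 probe sets with no single gene name in the annotation, 20 met the rule as higher at both times (0.217%) and 7 met it with exchanged labels (0.0758%).

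**Figure D1:**
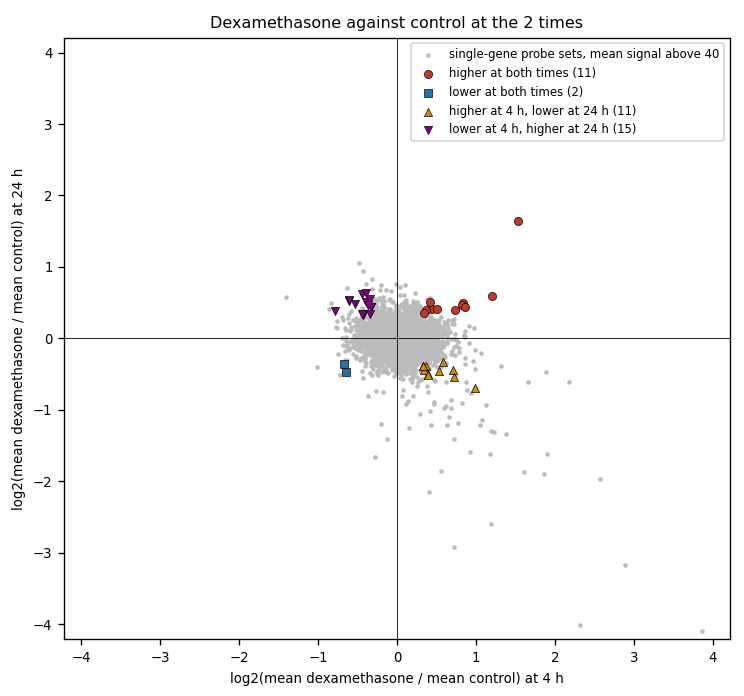
Log2 ratio of the mean dexamethasone signal to the mean control signal at 4 h (horizontal axis) and at 24 h (vertical axis). Grey points are single-gene probe sets with a mean signal above 40, and coloured points are the genes that met the rule in each combination of directions: 11 higher at both times, 2 lower at both, 11 higher then lower and 15 lower then higher.

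The 2 genes with exchanged labels were UBP21 (AT5G46740), a ubiquitin-specific protease, and AT5G05570. The mean signal of UBP21 was 70.8 in the 4 h controls and 44.5 with dexamethasone, and 64.2 and 50.3 at 24 h. The mean signal of AT5G05570 was 48.8 and 31.2 at 4 h, and 49.1 and 35.5 at 24 h.

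In a limma fit across all 14577 probe sets with sufficient signal, dexamethasone against control gave 1 call at 4 h (0.00686%), 1 at 24 h (0.00686%) and 3 on average over both times (0.0206%). An unadjusted p below 0.05 was reached by 1022, 451 and 639 probe sets. Of the 3 calls on average 1 was UGT88A1, with a log2 change of 0.63. It met the rule, with ratios of 1.73 at 4 h and 1.41 at 24 h, but had been left out by name. The other calls were probe sets with no gene name. On average over both times their log2 changes were 4.67 (limma adjusted p = 6.2e-07) and 2.63 (limma adjusted p = 0.0329). The probe set with 4.67 was also the call at 4 h (log2 change 4.84) and the call at 24 h (4.50). None of the calls was among the 11 genes, and nothing is read from this, since the rule chose them on the same difference. Their log2 changes had a median of 0.70 at 4 h and 0.43 at 24 h, against -0.01 and 0.01 over all probe sets tested, a difference that the rule itself sets.

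The widest ratio was that of AT3G05640 (probe set 258901_at, chromosome 3), which encodes a type 2C protein phosphatase, an enzyme class that removes phosphate groups from proteins in hormone and growth signalling. Its signals were 15.8 and 18.0 in the 4 h controls and 68.9 and 29.4 with dexamethasone at 4 h. At 24 h they were 16.3 and 18.3 in the controls and 68.8 and 39.1 with dexamethasone. The 0 h controls had 18.6 and 15.8, so all 6 controls lay in one narrow band, and all 4 dexamethasone arrays lay above it with replicate 1 well above replicate 2 each time. The ratio was 2.90 at 4 h (mean 49.1 ± 27.9 against 16.9 ± 1.55; SD, n = 2) and 3.11 at 24 h (54.0 ± 21.0 against 17.3 ± 1.40). Only the 4 dexamethasone arrays had a signal above percentile 40 of their array. With no detection calls, whether control signals this low exceed background is not known, and the size of the ratio is uncertain. Without replicate 1 of dexamethasone at either time the gene no longer met the rule, because the remaining signal (29.4 or 39.1) was not above 40.

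AT5G48490 (248683_at, chromosome 5), which encodes a small lipid transfer protein closely related to DIR1, a protein of long-distance defence signalling, had the next widest smaller ratio. In the 4 h controls its signals were 34.9 and 27.3, and with dexamethasone 78.6 and 64.5. At 24 h the controls had 52.9 and 50.1 and the dexamethasone arrays 84.7 and 70.0. At 0 h the signals were 62.5 and 50.0, below all 4 dexamethasone arrays, and the 4 h controls were the lowest of all. The ratio was 2.302 at 4 h (log2 change 1.101, SE 0.18) and 1.50 at 24 h (log2 change 0.54, SE 0.18). AT3G05640 and AT5G48490 were the 2 genes whose ratio reached 1.5 at both times, and 6 of the 11 reached it at 4 h. DIR1 itself and the other lipid transfer genes on the list had no single-gene probe set in the annotation used here. The 2 defence markers AT4G12490 and AT4G12500, also of lipid transfer type, were high on replicate 2 of dexamethasone at 4 h. On that array AT5G48490 had the lower of its pair of signals, still above both controls. Whether its signal is linked to that of the defence markers was not tested.

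Among the genes with a known link to the chloroplast, AT2G35260 (266551_at, chromosome 2) encodes a membrane protein of thylakoids that promotes chlorophyll synthesis and slows chlorophyll breakdown. Its 4 h controls had signals of 147.7 and 134.4, and the 4 h dexamethasone arrays had 204.4 and 197.1. At 24 h the signals were 161.8 and 160.2 in the controls and 215.8 and 212.1 with dexamethasone. At 0 h they were 159.6 and 156.5. The groups did not overlap, and the lowest dexamethasone signal was 1.34 times the highest control signal at 4 h and 1.31 times at 24 h. The ratios of the means were 1.42 (log2 change 0.50, SE 0.11) and 1.33 (0.40, SE 0.11), and 1.45 at 4 h and 1.34 at 24 h without the arrays that stood apart.

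AT5G02940 (250960_at, chromosome 5) encodes an ion channel of the plastid envelope. Its signals at 4 h were 135.1 and 132.7 in the controls and 204.7 and 158.4 with dexamethasone, a ratio of 1.36. At 24 h they were 97.4 and 94.0 in the controls and 123.7 and 131.5 with dexamethasone, a ratio of 1.33. The controls at 0 h had 99.0 and 96.3, close to those at 24 h. Control replicates were tight at both times, and the dexamethasone pair was widest at 4 h. Without replicate 1 of dexamethasone at 4 h this gene no longer met the rule.

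AT3G59780 (251461_at, chromosome 3) encodes a protein with a rhodanese domain, a fold shared with sulfur transferases. In the 4 h controls its signals were 77.5 and 103.8, and with dexamethasone 160.0 and 159.8. The 24 h controls had 73.1 and 70.8 and the 24 h dexamethasone arrays 117.1 and 82.9. With 75.7 and 74.2 at 0 h, the controls of 0 h and 24 h were alike, and the closest approach of the groups was at 24 h, where the lower dexamethasone array was 1.13 times the higher control. The ratio was 1.76 at 4 h and 1.39 at 24 h, and without replicate 1 of dexamethasone at 24 h the rule was not met.

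The other listed genes of chloroplast development show how far this pattern reached. Of the 23 loci on the chlorophyll synthesis list 7 were measured, of the 23 photosystem subunits 4 and of the 16 antenna genes 3, and apart from LHCB4.2, which was left out, none met the rule. Over these 7 chlorophyll genes the ratio had a median of 1.11 at 4 h and 1.01 at 24 h, and 3 of 7 (42.9%) lay above 1 at both times. Over the 5544 single-gene probe sets with a mean signal above 40 the medians were 0.994 and 1.00, and 23.4% lay above 1 at both times. HEME2, an enzyme of the tetrapyrrole pathway, had a ratio of 1.14 at both times, and CHLM, the magnesium protoporphyrin methyltransferase, 1.08 and 1.14. LHCB4.1, an antenna protein of photosystem II, had 1.13 and 1.202. For HEME2, CHLM and LHCB4.1 the dexamethasone arrays lay above the controls at both times, but the ratio was below the bound. Of all 13442 probe sets that could qualify, 2.34% had both dexamethasone arrays above both controls at both times. PORB, a protochlorophyllide reductase, had 0.892 at 4 h and 1.102 at 24 h. The 4 photosystem subunits PSAE-1, PSAN, PSBW and PSBY had ratios of 0.924 to 1.07 at 4 h and of 1.13 to 1.248 at 24 h. At 24 h all 4 had both dexamethasone arrays above both controls. So did 980 of the 5544 single-gene probe sets with a mean signal above 40. PSAE-1, PSBW and LHCB4.1 are the same probe sets that were summed as shoot markers above. The part of tissue content in their ratios was not tested.

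**Figure D2:**
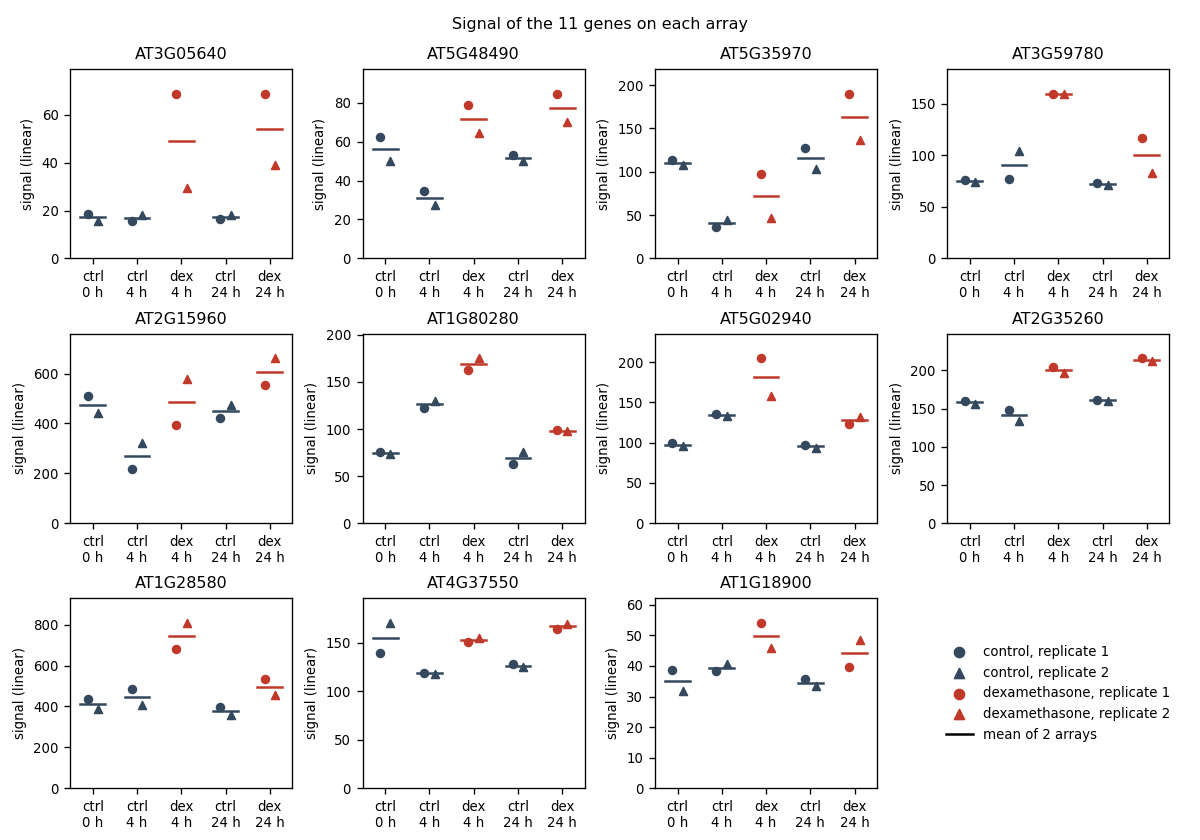
Signal (linear scale) of each of the 11 genes on every array, with controls in dark blue, dexamethasone in red, replicate 1 as circles, replicate 2 as triangles and the mean of 2 arrays as a line. At 4 h and at 24 h every red point lies above both control points of the same time, and the distance is smallest for AT5G35970.

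Enzymes made up the next group. AT1G28580 (262749_at, chromosome 1) encodes a GDSL-type lipase, a secreted hydrolase, and had the highest signal with dexamethasone at 4 h. Its 4 h signals were 485.1 and 407.3 in the controls and 682.1 and 808.3 with dexamethasone, a ratio of 1.67. At 24 h they were 396.1 and 360.0 in the controls and 535.8 and 456.9 with dexamethasone, a ratio of 1.31. Without replicate 1 of dexamethasone at 24 h the ratio bound was not met. Its 0 h controls, at 436.4 and 386.5, lay within the range of the later controls. The gene sits in a row of related genes on the chromosome, so its neighbours bear on the reading of the probe set. AT1G28600, a lipase gene of the same family and 2 genes further on, had mean signals of 242 at 4 h and 204 at 24 h with dexamethasone and ratios of 1.17 and 1.27, with both dexamethasone arrays above both controls at each time. AT1G28570, the gene before AT1G28580, had ratios of 1.19 and 1.42, and its groups overlapped at 4 h. AT1G28590, the gene after AT1G28580, had ratios of 1.47 and 0.899 at dexamethasone means of only 4.3 and 4.0. Further off, AT1G28540 and AT1G28610 had ratios of 1.08 to 1.14 and groups that overlapped at both times. AT1G28630 had ratios of 3.01 and 0.509 and AT1G28640 of 2.12 and 1.72, at dexamethasone means of 0.60 to 6.29. All 11 probe sets have IDs that end in _at with no suffix for shared sequence, and whether related transcripts contributed was not tested.

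AT1G80280 (260297_at, chromosome 1) encodes a protein of the alpha/beta hydrolase family. At 4 h its signals were 122.3 and 130.0 in the controls and 163.0 and 175.1 with dexamethasone. By 24 h the controls had 62.7 and 75.5 and the dexamethasone arrays 98.8 and 98.0. The controls at 0 h had 75.3 and 73.3, so this gene was high at 4 h in both treatments. The dexamethasone arrays lay above the controls of the same time, as the rule requires. Its ratio was 1.34 at 4 h and 1.42 at 24 h, one of 4 genes for which the later ratio was the larger.

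AT4G37550 (253042_at, chromosome 4), which encodes a protein of the formamidase family, had close replicates at 4 h and 24 h. Its signals at 4 h were 119.1 and 117.7 in the controls and 150.5 and 154.3 with dexamethasone, a ratio of 1.29. Those at 24 h were 128.3 and 124.5 in the controls and 164.5 and 169.4 with dexamethasone, a ratio of 1.32. Controls at 0 h had 139.0 and 170.1, and the higher of these exceeded all 4 dexamethasone signals. It was the one gene of the 11 whose dexamethasone arrays at 24 h did not both lie above the 0 h controls. The next gene on the chromosome, AT4G37560, of the same family, had ratios of 1.202 at 4 h and 0.806 at 24 h.

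A pair of genes encode proteins that act on nucleic acids. AT5G35970 (249677_at, chromosome 5) encodes a helicase-like protein with a nucleotide-binding fold. Its controls had 35.8 and 44.8 at 4 h against 97.6 and 47.0 with dexamethasone, and the lower dexamethasone array exceeded the higher control by a factor of only 1.05. At 24 h the controls had 127.1 and 103.8 and the dexamethasone arrays 190.3 and 136.6. The 0 h controls, at 113.4 and 107.6, lay above both dexamethasone arrays of 4 h. The ratio of 1.79 at 4 h thus separates levels that were all below that of 0 h, and it rests on replicate 1: without it the ratio bound was not met at 4 h, nor without replicate 1 of dexamethasone at 24 h, where the full ratio was 1.42.

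AT1G18900 (259461_at, chromosome 1) encodes a pentatricopeptide repeat protein, a family that binds organelle RNA. It was the weakest of the 11 on both bounds. Its signals at 4 h were 38.3 and 40.6 in the controls and 54.1 and 45.8 with dexamethasone, a ratio of 1.27. At 24 h the controls had 35.6 and 33.5 and the dexamethasone arrays 39.6 and 48.7, a ratio of 1.28. With 38.6 and 31.7, its 0 h controls overlapped the later controls. Leaving out any 1 of 4 arrays (control replicate 1 at 4 h, control replicate 2 at 24 h, dexamethasone replicate 1 at 4 h or dexamethasone replicate 2 at 24 h) took it below a bound.

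AT2G15960 (265481_at, chromosome 2) was the remaining gene. Its signals at 4 h were 215.4 and 319.8 in the controls and 392.5 and 577.6 with dexamethasone, a ratio of 1.81. At 24 h they were 421.3 and 475.3 in the controls and 554.7 and 661.1 with dexamethasone, a ratio of 1.36. The 0 h controls had 508.6 and 442.2, within the range of the dexamethasone arrays at 4 h. Replicate 2 was the higher one in the 4 later groups, and without replicate 2 of dexamethasone at 24 h the gene fell below the ratio bound.

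Close to the bounds, the nearest genes outside were AT2G21960, with ratios of 1.244 and 1.258, and AT3G24100, with 1.243 and 1.277. The nearest inside were AT1G18900 at 1.267 and AT4G37550 at 1.287 for the smaller ratio. On the bound for the mean signal, AT4G27652 was just outside with a smaller dexamethasone mean of 39.5 and AT4G38120 with 32.6, while AT1G18900 was inside at 44.2 and AT3G05640 at 49.1. In all 17 genes passed the bounds on ratio and mean at both times, and 11 of these also had groups that did not overlap.

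The 0 h controls were not used by the rule. Set against them, the 24 h controls of the 11 genes were at 0.818 to 1.04 times the 0 h level, with a median of 0.960. The 4 h controls were at 0.365 to 1.70 times, with a median of 0.984. Samples at 0 h and 24 h share a time of day, and those at 4 h do not. With dexamethasone at 24 h all 11 means lay above the 0 h mean, by factors of 1.08 to 3.14, and for 10 of 11 genes both arrays lay above both 0 h controls. This held for 16.8% of single-gene probe sets with a mean signal above 40. At 4 h it held for 8 of 11 genes, against 17.7%, and the exceptions were AT5G35970, AT2G15960 and AT4G37550. The dexamethasone arrays in these counts are those that the rule required to be high, so the counts are a description.

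Change between 4 h and 24 h, averaged over both treatments, is a comparison at right angles to the differences used by the rule, and it was tested. It uses the same arrays as the rule, which favours close replicates, so the test is not fully independent of how the genes were chosen. Of the 11 genes 6 passed (54.5%), 2 as higher and 4 as lower at 24 h, where limma called 1123 of 14577 probe sets (7.70%), 620 higher (4.25%) and 503 lower (3.45%). The share was 8.44% among single-gene probe sets with a mean signal above 40. It was 10.8% of 638 such probe sets whose dexamethasone and control arrays did not overlap at either time. That choice favours close replicates as the rule does, but unlike the rule it sets no direction and no bound on the ratio. AT5G35970 was higher at 24 h, with 1.31 on the log2 scale (SE 0.19, limma adjusted p = 0.00156), as was AT2G15960 with 0.55 (SE 0.15, limma adjusted p = 0.0424). Lower at 24 h were AT1G80280 (log2 change -0.80, SE 0.09, limma adjusted p = 3.1e-04), AT3G59780 (-0.49, SE 0.13, limma adjusted p = 0.0371), AT5G02940 (-0.48, SE 0.10, limma adjusted p = 0.0115) and AT1G28580 (-0.41, SE 0.10, limma adjusted p = 0.0270).

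The other 5 genes did not pass. AT5G48490 had a log2 change of 0.39 (limma adjusted p = 0.106), and AT2G35260, AT4G37550, AT3G05640 and AT1G18900 had 0.14, 0.11, 0.11 and -0.17. The median over the 11 genes was 0.11, against 0.01 over all probe sets, and its sign turned without replicate 2 of dexamethasone at 4 h (-0.174), 1 of the arrays that stood apart, and without replicate 1 of dexamethasone at 24 h (-0.0829), which did not stand apart. In each of these fits the median is the value of AT3G05640 alone, whose control signals did not exceed percentile 40 of their arrays. AT5G35970 and AT1G80280 passed under each of the 17 other settings that were run. The call of AT5G02940 was lost in 1 of them, without replicate 1 of dexamethasone at 24 h (limma adjusted p = 0.0601). The call of AT1G28580 was lost in 6 (largest limma adjusted p = 0.121), that of AT2G15960 in 10 (0.168) and that of AT3G59780 in 12 (0.148), among them the fits that left out any 1 of 4, 8 and 8 arrays. Depending on the array left out, 3 to 5 of the 11 genes passed. The genes that passed did not share 1 course over time, since 2 were higher and 4 lower at 24 h than at 4 h, while dexamethasone lay above the controls of the same time in all 6, as the rule requires.

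**Figure D3:**
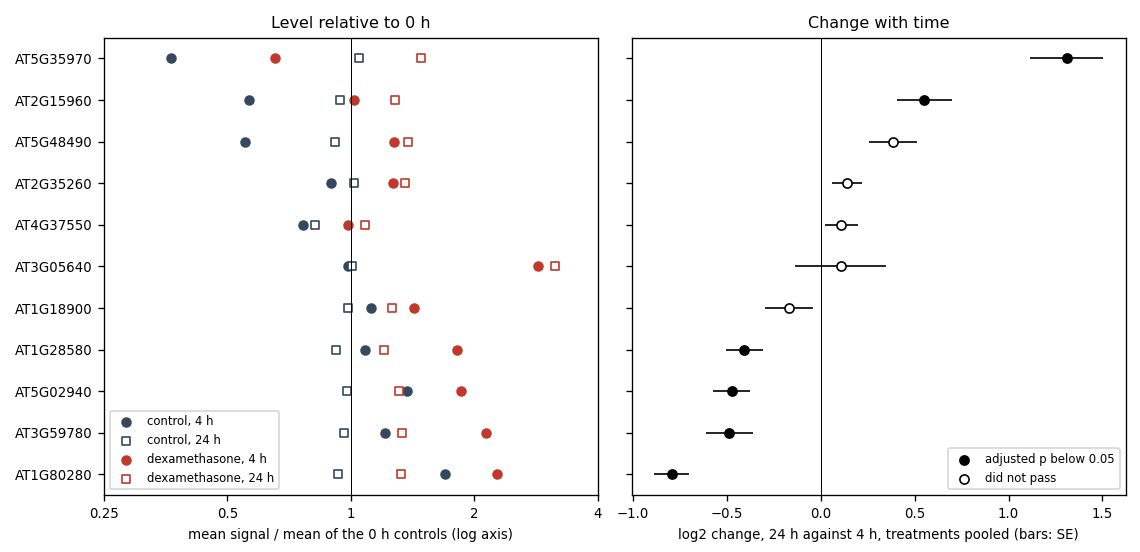
Left, mean signal of each group divided by the mean of the 0 h controls (log axis), for controls (dark blue) and dexamethasone (red) at 4 h (filled circles) and 24 h (open squares). Right, log2 change of 24 h against 4 h with both treatments pooled, with bars for the SE and filled points for an adjusted p below 0.05; AT5G35970 at 1.31 and AT1G80280 at -0.80 mark the ends.

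How the replicates varied differed between the genes. In the dexamethasone groups the coefficient of variation between 2 replicates ranged from 0.0814% to 56.8% at 4 h and from 0.573% to 38.9% at 24 h, against 0.828% to 27.6% and 0.696% to 14.3% in the controls of those times. AT3G05640 and AT5G35970 had the widest pairs with dexamethasone at 4 h, with 56.8% and 49.5%. Replicate 1 was the higher array in both dexamethasone groups for 5 of the 11 genes and replicate 2 for 2 of them. The 11 loci lie on all 5 nuclear chromosomes, and none of them neighbours another. Among neighbours within 5 genes on either side that had a single-gene probe set, AT1G28600 was the one with both dexamethasone arrays above both controls at both times.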

How the data were processed

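Total RNA of whole seedlings was measured on 10 arrays. The authors deposited a linear signal intensity for each probe set. The submitters' processing notes name MAS5 and GCOS, with no versions given. A mean trimmed by 2% at each end was between 100.011 and 100.012 on every array, so the values had been scaled to a common mean, which hides changes in total messenger RNA, and the scaling was kept. There are no detection calls, and precision is limited by having 2 arrays per group. Names came from the platform annotation, updated through the RefSeq table of assembly TAIR10.1 (names, chromosomes and gene order only): 13513 probe sets had 1 gene, 503 several and 8730 none. Of those with 1 gene, 13484 matched RefSeq. Roles of genes are general background and not from the table.

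The rule was applied to the deposited signals. For tests, signals became log2(signal + 4.32), the constant being percentile 20 of all values, and 14577 probe sets were kept, those that exceeded percentile 40 of an array at least 2 times. Limma 3.58.1 in R 4.3.3 (lmFit, eBayes with a trend) was fitted with 1 mean per group over all 10 arrays (5 residual degrees of freedom), with Benjamini-Hochberg adjustment, two-sided tests and a threshold of 0.05. Tables and figures used Python 3.11.15, pandas 2.3.3 and matplotlib 3.10.9. The test was checked on simulated data. The members and the gene lists were chosen with earlier results of these data known. The named genes are all 11 members, the 2 genes with exchanged labels, those nearest the bounds, and list genes and neighbours singled out after their values were seen. Alternatives were other pseudocounts, filters, bounds and scalings, the replicate number as a block, and leaving out arrays. Sequences were not used here.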

Additional observations from a re-analysis of the deposited data

How the results depend on the processing

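The number of genes higher at both times, and the number with exchanged labels, depended on the bounds. The counts were 117 and 75 with a ratio of at least 1.1, 2 and 0 with 1.5, 24 and 16 with a mean above 20, 7 and 0 with a mean above 80, and 12 and 3 with quantile normalization. Requiring each dexamethasone array to exceed only the control of its own replicate number gave 12 and 7. Leaving out 1 array, which makes the rule easier to meet, gave 13 to 37 and 7 to 17, and between 7 and 11 of the 11 genes still met it. Leaving out both arrays that stood apart, an alternative chosen after seeing the data, gave 57 and 24.

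For dexamethasone against control in limma, leaving out 1 array gave 1 to 80 calls at 4 h, 1 to 8 at 24 h and 1 to 5 on average. The 80 arose on leaving out dexamethasone replicate 1 at 4 h. That fit leaves the group with replicate 2 alone, the array with the high defence markers, and assumes that it varies like the other groups. Without both arrays that stood apart there were 3 calls at 4 h and 5 on average. The 3 calls on average became 1 with a pseudocount of 1, with quantile normalization or with the replicate block.

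The calls at 24 h against 4 h numbered 651 to 1104 with 1 array left out and 1081 with the replicate block. Of the 11 genes 3 passed without the trend and 5 with the block, 3 to 5 with 1 array left out, and their median log2 change lay between -0.174 and 0.105, or -0.141 without both arrays that stood apart. The main fit did not treat the replicate numbers as pairs. Deviations correlated by 0.114 at 4 h and -0.0261 at 24 h between control and dexamethasone. Such values cannot settle whether samples were handled in pairs, and the labels do not say. The causes were not tested.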
